A study of Mus musculus with 6 samples.

Results

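The unfolded protein response and the integrated stress response were followed through 10 genes in the interscapular brown fat of newborn mice. The genes were taken by symbol: the endoplasmic reticulum (ER) chaperone and stress regulators Hspa5, Dnajb9, Xbp1, Herpud1, Atf4 and Ddit3, and the genes Trib3, Asns, Chac1 and Sesn2, which the transcription factor ATF4 is known to drive. All 10 were among the 19241 genes of the table, and all 10 passed the filter on low values. RNA of the whole depot was sequenced in bulk, in 3 libraries from Fstl1-floxed newborns (WT) and 3 libraries from newborns labelled Myf5-Fstl1 KO (KO). In KO, Fstl1, the gene of a secreted glycoprotein, is lost in the Myf5 lineage. Myf5 marks precursors of skeletal muscle and of much of the interscapular brown fat, so cells of other origin in the depot keep the gene. The labels do not give the deleter allele carried by KO, whether WT animals carry it, the number of animals in a library or their sex, and p-values measure the spread between these libraries only. In bulk RNA, fewer cells of a type and less RNA per cell cannot be told apart.

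Fstl1 itself was at 55.5, 130.04 and 54.4 FPKM in the WT libraries and 7.93, 13.1 and 8.77 FPKM in KO, a log2 fold change of −2.79 (SE 0.33, limma adjusted p 0.00979), where FPKM are fragments counted per kilobase of transcript and scaled for sequencing depth. Xist lay at 44.8 FPKM or more in every WT library and at 0.92 FPKM or less in every KO library, and the Y-linked gene Eif2s3y lay at 83.7 FPKM or more in every KO library and at 0.08 FPKM or less in every WT library. The sex of the animals thus coincided with the genotype in these libraries, and the 2 cannot be told apart in any difference given here. From the spacing of low values, each library was put at 13900000 to 15100000 reads.

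The unfolded protein response is how a cell answers misfolded protein in the ER. The chaperone BiP, made from Hspa5, holds the sensors IRE1, PERK and ATF6 inactive until client proteins draw it away; IRE1 then splices Xbp1 mRNA, ATF6 is cut to an active fragment, and PERK phosphorylates the translation factor eIF2 alpha. Phosphorylated eIF2 alpha lowers general translation and raises that of ATF4, and the kinases GCN2 (amino acid shortage), HRI (heme shortage and mitochondrial stress) and PKR (double-stranded RNA) reach the same point, which is called the integrated stress response. ATF4 raises genes for amino acid synthesis and transport and for charging tRNA, and with sustained stress the factor CHOP, made from Ddit3. Brown adipocytes are known to release FGF21 under mitochondrial stress. Much of this control acts on splicing, translation and phosphorylation, which gene-level FPKM do not show: spliced and unspliced Xbp1 mRNA share a row, and ATF4 protein does not follow from Atf4 mRNA.

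Promoter sequences are shown because known response elements of the ER and ATF4 branches can be looked for in them. RefSeq windows (GRCm38.p6, the assembly also called mm10, the build in the submitters' processing notes) were found for all 10 genes, and the 250 bases before the annotated start were searched on both strands for the ER stress response element (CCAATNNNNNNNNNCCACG), its variant ERSE-II (ATTGGNCCACG), the XBP1 core (TGACGTGG) and the C/EBP-ATF response element of ATF4 and its partners (TGATGNAA). No 2 of these motifs share bases in the sequences shown. The last 200 bases before the start are printed 5′ to 3′ on the strand of the gene for the 4 of the 10 genes with a match and for Aars, Gars and Yars, the 3 genes of tRNA charging past the threshold described further on, with the matched letters in capitals. A match on the other strand appears as the reverse complement, for the C/EBP-ATF element as TTGCATCA or TTTCATCA.
Hspa5, chr2:34771890-34772089, plus strand: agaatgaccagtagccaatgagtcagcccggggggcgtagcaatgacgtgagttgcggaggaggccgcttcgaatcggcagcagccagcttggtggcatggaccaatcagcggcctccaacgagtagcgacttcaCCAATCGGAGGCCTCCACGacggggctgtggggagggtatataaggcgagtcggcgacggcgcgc
Herpud1, chr8:94386229-94386428, plus strand: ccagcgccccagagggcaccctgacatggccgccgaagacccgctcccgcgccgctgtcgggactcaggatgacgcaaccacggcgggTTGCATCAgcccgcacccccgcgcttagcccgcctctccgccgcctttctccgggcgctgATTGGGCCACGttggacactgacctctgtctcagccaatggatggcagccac
Asns, chr6:7693210-7693409, minus strand: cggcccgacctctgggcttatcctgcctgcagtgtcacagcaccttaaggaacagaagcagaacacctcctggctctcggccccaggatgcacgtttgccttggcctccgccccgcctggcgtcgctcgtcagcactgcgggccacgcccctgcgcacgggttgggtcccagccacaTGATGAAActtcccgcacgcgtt
Chac1, chr2:119351042-119351241, plus strand: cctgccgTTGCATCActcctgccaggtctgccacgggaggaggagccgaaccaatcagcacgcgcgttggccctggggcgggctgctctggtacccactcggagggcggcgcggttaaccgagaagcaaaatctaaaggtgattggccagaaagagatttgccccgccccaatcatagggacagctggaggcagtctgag
Aars, chr8:111033642-111033841, plus strand: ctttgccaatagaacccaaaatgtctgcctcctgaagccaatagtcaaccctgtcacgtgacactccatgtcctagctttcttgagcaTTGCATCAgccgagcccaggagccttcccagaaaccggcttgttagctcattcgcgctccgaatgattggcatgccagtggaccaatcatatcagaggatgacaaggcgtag
Gars, chr6:55037801-55038000, plus strand: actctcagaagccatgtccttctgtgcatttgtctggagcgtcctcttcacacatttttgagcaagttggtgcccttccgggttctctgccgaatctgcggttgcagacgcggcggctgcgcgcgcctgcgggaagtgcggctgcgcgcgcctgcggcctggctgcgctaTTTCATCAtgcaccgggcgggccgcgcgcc
Yars, chr4:129189703-129189902, plus strand: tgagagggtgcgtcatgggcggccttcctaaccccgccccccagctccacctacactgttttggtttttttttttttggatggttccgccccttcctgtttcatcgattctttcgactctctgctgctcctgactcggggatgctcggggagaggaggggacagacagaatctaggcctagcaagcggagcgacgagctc

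Hspa5 held the ER stress response element 65 to 47 bases before its start, a motif found in 0.113% of the 32851 promoter windows. Herpud1 held ERSE-II 52 to 42 bases before its start, found in 0.0304% of windows, and the C/EBP-ATF element at 112 to 105 bases. Asns held the C/EBP-ATF element close to its start, at 23 to 16 bases, and Chac1 at 193 to 186 bases. That element was the most frequent of those searched, in 3.45% of windows. Dnajb9, Xbp1, Atf4, Ddit3, Trib3 and Sesn2 had none of the 4 motifs in this window, and the XBP1 core, present in 0.563% of windows, was in none of the 10. Among the other stress genes with a window, 7 of 16 ER chaperones and folding enzymes held the ER stress response element, including Hsp90b1, Calr, Canx and Pdia6, and 3 of 8 aminoacyl-tRNA synthetase genes (Aars, Gars and Tars) held the C/EBP-ATF element, while Yars held none of the motifs.

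None of the 10 genes differed between KO and WT past an adjusted p of 0.05 (limma on log2(FPKM + 1), Benjamini-Hochberg adjustment over all 13331 genes tested). Across all genes tested the share past that threshold was 2.21%. One of the 10, Asns, had an unadjusted p under 0.05, against 19.2% of all genes tested (8.6% lower and 10.6% higher in KO), and it was also the only one whose groups did not overlap, against 24.9% of all genes. Estimates lay above 0 for 6 genes and below 0 for 4, with a median log2 fold change of 0.15 beside 0.01 over all genes tested. The 4 genes of the ER side (Hspa5, Dnajb9, Xbp1 and Herpud1) had estimates between 0.15 and 0.85, while Atf4, Ddit3 and the ATF4 targets ran from −0.64 for Asns to 0.65 for Sesn2.

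**Figure D1:**
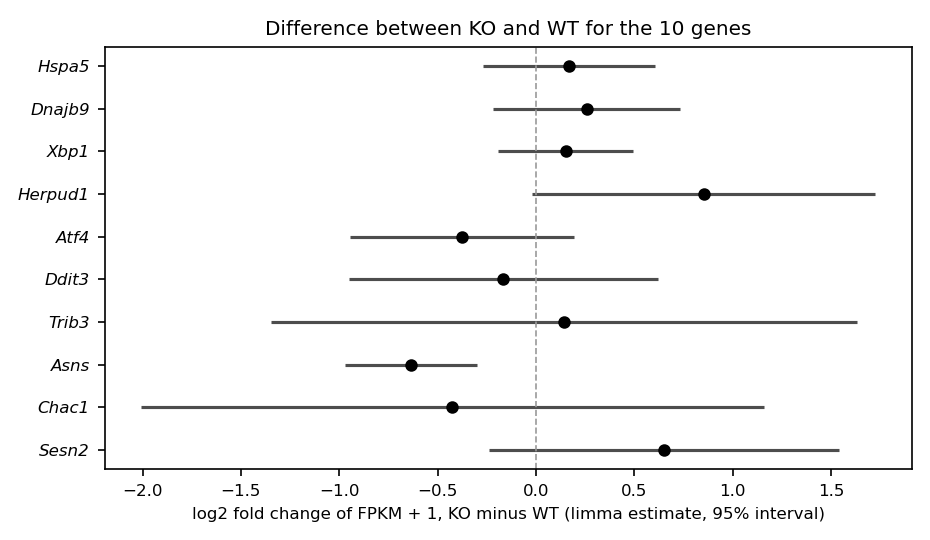
Log2 fold change of FPKM + 1, KO minus WT, on the horizontal axis for each of the 10 genes, as the limma estimate (dot) with its 95% interval (line) from 3 WT and 3 KO libraries. The interval of Asns lies below 0, from −0.97 to −0.30, and the intervals of the other 9 genes include 0. Trib3 and Chac1 have the widest.

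**Figure D2:**
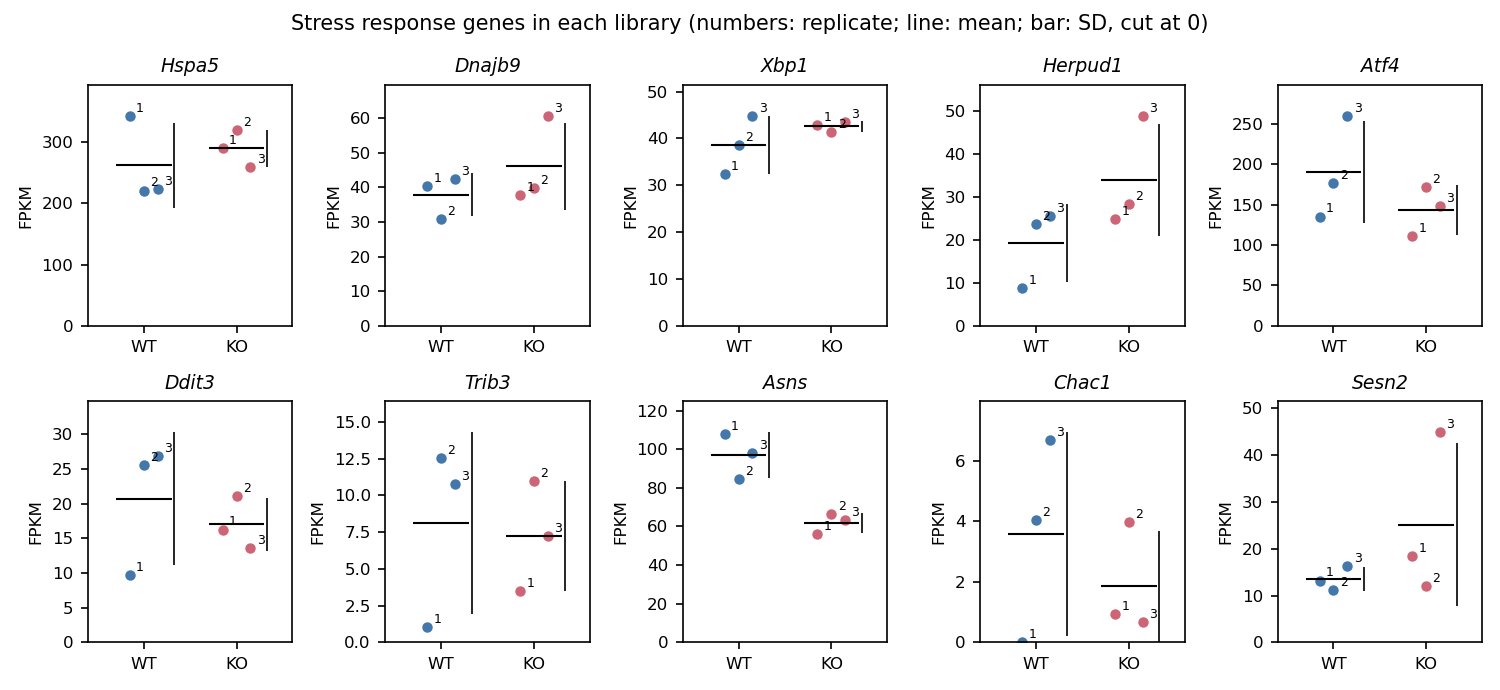
FPKM on a linear axis from 0 for each gene, with a dot per library marked by its replicate number, a line at the group mean and a bar of 1 SD (n = 3 per group). The KO dots of Asns, 56.0 to 66.4 FPKM, lie below the WT dots, 84.6 to 108.02 FPKM, and in the other 9 genes the dots of the groups overlap.

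On the chaperone side stood Hspa5, the gene of BiP and the most abundant of the 10 (gene positions are those of RefSeq on GRCm38.p6: chr2:34772090-34776529, plus strand). It was at 342.9, 221.2 and 224.04 FPKM in the WT libraries and 291.0, 320.01 and 259.7 FPKM in KO. WT replicate 1 was the highest library and the other 2 WT libraries were the lowest, so the KO values lay inside the WT range. The log2 fold change was 0.17 (SE 0.19, 95% interval −0.27 to 0.61, limma adjusted p 0.68).

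Dnajb9 (chr12:44205897-44210068, minus strand) encodes ERdj4, an ER co-chaperone of BiP, and shares exonic bases with the microRNA gene Mir5627 on the opposite strand. It was at 40.4, 30.7 and 42.4 FPKM in the WT libraries and 37.8, 39.8 and 60.6 FPKM in KO. KO replicate 3 stood above the other 5 libraries, which spanned 30.7 to 42.4 FPKM. Its log2 fold change was 0.26 (95% interval −0.22 to 0.73, limma adjusted p 0.542), and 0.05 without KO replicate 3.

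Herpud1 (chr8:94386429-94395371, plus strand) encodes an ER membrane protein of the machinery that clears misfolded proteins. Its values were 8.84, 23.7 and 25.5 FPKM in WT and 24.9, 28.4 and 48.9 FPKM in KO. WT replicate 1 was low and KO replicate 3 high, and the remaining 4 libraries lay between 23.7 and 28.4 FPKM. Herpud1 had the largest estimate of the 10, a log2 fold change of 0.85 (SE 0.39, 95% interval −0.02 to 1.72, limma adjusted p 0.27). Without WT replicate 1 the estimate was 0.39, without KO replicate 3 it was 0.57, and without both, a setting chosen after seeing the data, it was 0.11.

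Xbp1 (chr11:5520641-5525993, plus strand) gives the spliced mRNA from which the transcription factor of the IRE1 branch is made. Its row was at 32.4, 38.6 and 44.8 FPKM in the WT libraries and 42.9, 41.3 and 43.5 FPKM in KO. The KO libraries lay close together, with an SD of 1.13 FPKM against 6.2 FPKM in WT, and inside the WT range. For Xbp1 the log2 fold change was 0.15 (95% interval −0.19 to 0.49, limma adjusted p 0.634).

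Atf4 (chr15:80255184-80257545, plus strand), the gene of the central factor of the integrated stress response, was at 135.2, 176.2 and 259.45 FPKM in the WT libraries and 110.8, 172.0 and 148.0 FPKM in KO. The highest library was WT replicate 3 and the lowest KO replicate 1. The KO mean was 75.5% of the WT mean, with a log2 fold change of −0.38 (95% interval −0.94 to 0.19, limma adjusted p 0.452), and −0.13 without WT replicate 3.

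Ddit3 (chr10:127290793-127296291, plus strand) is the gene of CHOP, a factor that acts when stress persists. It was at 9.65, 25.6 and 26.8 FPKM in the WT libraries and 16.3, 21.1 and 13.6 FPKM in KO. WT held both the lowest library, replicate 1, and the 2 highest. Its log2 fold change was −0.17 (95% interval −0.95 to 0.62, limma adjusted p 0.84). It was −0.62 without WT replicate 1, and 0.04 and 0.08, with the sign turned, without WT replicate 2 and without WT replicate 3. In the GENCODE annotation exons of Ddit3 overlap exons of Mars and Gm4189 on the opposite strand. The strand handling is not given in the sources used here, so reads from these genes cannot be told apart there.

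Among the ATF4 targets, Asns came closest to the threshold. It lies at chr6:7675165-7693209, minus strand, and encodes asparagine synthetase, which makes asparagine from aspartate and glutamine. Asns was at 108.02, 84.6 and 98.1 FPKM in the WT libraries and 56.0, 66.4 and 63.2 FPKM in KO. Every KO library was below every WT library, as in 11.4% of all genes tested. The means were 96.9 ± 11.7 and 61.9 ± 5.35 FPKM (SD, n = 3 each), the KO mean being 63.8% of that of WT. The estimate was a log2 fold change of −0.64 (SE 0.15, 95% interval −0.97 to −0.30) and did not pass, at a limma adjusted p of 0.0626. Over the 17 alternatives it lay between −0.73 and −0.52, with adjusted p from 0.0115 to 0.181, and only array weights brought it past the threshold.

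Trib3 (chr2:152337425-152344060, minus strand) encodes a pseudokinase that ATF4 and CHOP raise. It was at 1.07, 12.5 and 10.8 FPKM in the WT libraries and 3.51, 10.96 and 7.21 FPKM in KO. WT replicate 1 was the lowest library by far and the other WT libraries included the highest. The mean of KO was 89.1% of the WT mean, while the estimate on the log scale, where the low WT library weighs more, was 0.14 (95% interval −1.35 to 1.63, limma adjusted p 0.935). Its sign turned without WT replicate 1, to −0.73, so neither direction can be given.

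Chac1 (chr2:119351242-119354326, plus strand) encodes an enzyme that breaks down glutathione. It was the least abundant of the 10, listed at 0, 4.05 and 6.67 FPKM in the WT libraries and 0.94, 3.97 and 0.66 FPKM in KO. The 0 of WT replicate 1 allows up to 0.129 FPKM, which 3 reads on this transcript would give at the estimated depth, for counting error only. WT replicates 2 and 3 and KO replicate 2 lay near or above 4 FPKM and the other 3 libraries below 1 FPKM. Its log2 fold change was −0.43 (95% interval −2.01 to 1.16, limma adjusted p 0.791) and turned to 0.07 at a pseudocount of 0.1.

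Sesn2 (chr4:132492804-132510456, minus strand) encodes sestrin 2, a leucine-binding protein that restrains the growth kinase mTORC1. It was at 13.2, 11.2 and 16.3 FPKM in the WT libraries and 18.5, 12.0 and 44.8 FPKM in KO. KO replicate 3 stood far above the other 5 libraries, which spanned 11.2 to 18.5 FPKM. The log2 fold change of 0.65 (95% interval −0.24 to 1.54, limma adjusted p 0.405) was 0.14 without that library.

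By mean FPKM over the 6 libraries, which is a level per length of transcript, the order was Hspa5 (276.5), Atf4 (166.9), Asns (79.4), Dnajb9 (42.0), Xbp1 (40.6), Herpud1 (26.7), Sesn2 (19.3), Ddit3 (18.8), Trib3 (7.67) and Chac1 (2.71). Hspa5 ranked 316 and Atf4 476 among the 13331 genes tested, and Chac1 ranked 10029. Only between Atf4 and Asns did the ranges of neighbours in this order not overlap across the libraries, with at least 110.8 FPKM for Atf4 and at most 108.02 FPKM for Asns. The ranges of all other neighbours overlapped.

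The spread within a group was wide and was not shared by all 10 genes. WT replicate 1 was the lowest library for 5 of them (Xbp1, Herpud1, Ddit3, Trib3 and Chac1) and the highest for 2 (Hspa5 and Asns), where 20.2% of all genes tested had their lowest and 16.8% their highest value in that library. In that library Trib3 lay 1.81, Chac1 1.55, Herpud1 1.35 and Ddit3 0.82 below the gene's mean on the log2 scale, while Asns lay 0.48 above it. KO replicate 3 was the highest library for Dnajb9, Herpud1 and Sesn2, at 0.55, 0.998 and 1.34 above the gene's mean. Trib3, Ddit3 and Chac1 were above their means in WT replicates 2 and 3 and KO replicate 2 and below them in WT replicate 1 and KO replicate 1. Ddit3 and Chac1 were also below in KO replicate 3.

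**Figure D3:**
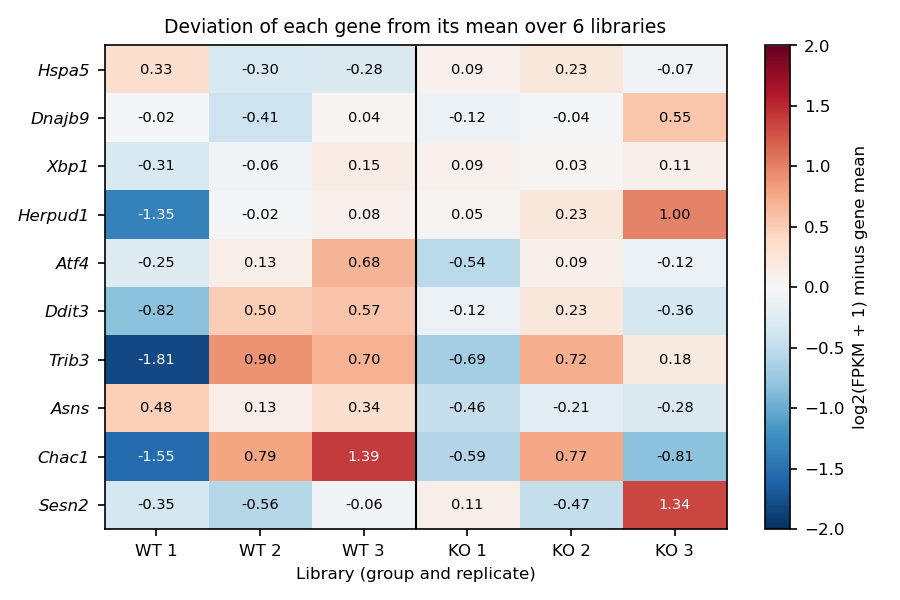
Difference between log2(FPKM + 1) in a library and the gene's mean over the 6 libraries, as colour and as printed value, for the 10 genes (vertical) in each WT and KO library (horizontal). Trib3, Chac1, Herpud1 and Ddit3 are at −1.81 to −0.82 in WT replicate 1, and Asns is the one row with 1 sign in all WT libraries and the other in all KO libraries.

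Beyond the 10, lists of 103 other genes of these pathways were examined, of which 99 were tested. In all, 5 fell and 1 rose past the threshold in KO, against 1.01% lower and 1.21% higher among all genes tested. Those that fell were Atf5, Mthfd2, Aars, Gars and Yars, and the one that rose was Sesn1, from the lists of transcription factors, one-carbon enzymes, synthetases and ATF4 or CHOP targets. The count depended on single libraries. It was 0 when WT replicate 2, WT replicate 3 or KO replicate 3 was left out, and 4 without WT replicate 1, of which Atf5, Gars and Yars were among the 6 and Fgf21 was not. Without KO replicate 1 the 1 gene called was Cebpb, which is not among the 6, and without KO replicate 2 it was Mthfd2. With the replicate number as a block 1 gene was called, Yars.

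Of the aminoacyl-tRNA synthetases, the enzymes that charge tRNAs, only the 12 listed as ATF4 targets were examined. Estimates lay below 0 in 12 of these 12 genes, against 48.4% of all genes tested. The groups did not overlap in 9 of them, with KO lower, where 11.4% of all genes tested showed this, and the median log2 fold change was −0.61. Estimates on 1 side of 0 were also seen in marker lists of other cell types. They lay below 0 in 9 of 9 skeletal muscle markers (median −0.68) and above 0 in 8 of 8 macrophage markers (median 0.35). The groups did not overlap in 1 of those 9 and 3 of those 8, against 11.4% lower and 13.6% higher among all genes tested. Summed muscle markers were 371 FPKM in KO replicate 1 and 1434 to 2112 FPKM in the other libraries. Of the 12, 3 fell past the threshold and 0 rose, against 1.01% lower and 1.21% higher among all genes tested. Yars, for tyrosine, fell from 20.3, 26.1 and 23.5 FPKM in WT to 10.4, 14.2 and 10.9 FPKM in KO, a log2 fold change of −0.93 (SE 0.17, limma adjusted p 0.0349). Gars, for glycine, fell from 170.4, 185.5 and 167.6 FPKM to 106.0, 105.0 and 114.6 FPKM, a log2 fold change of −0.68 (SE 0.13, limma adjusted p 0.0391). Aars, for alanine, fell from 53.2, 41.3 and 42.2 FPKM to 24.4, 28.3 and 20.8 FPKM, a log2 fold change of −0.87 (SE 0.17, limma adjusted p 0.0406). Each of these genes had a KO mean of 50.7% to 62.2% of its WT mean. In the promoter windows, Aars and Gars held the C/EBP-ATF element, as did Tars, which did not pass (limma adjusted p 0.117), and Yars did not, nor did the other called genes Atf5, Mthfd2 and Sesn1 in the window searched. The estimates of the other 9 genes ran from −0.68 for Tars to −0.09 for Eprs.

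**Figure D4:**
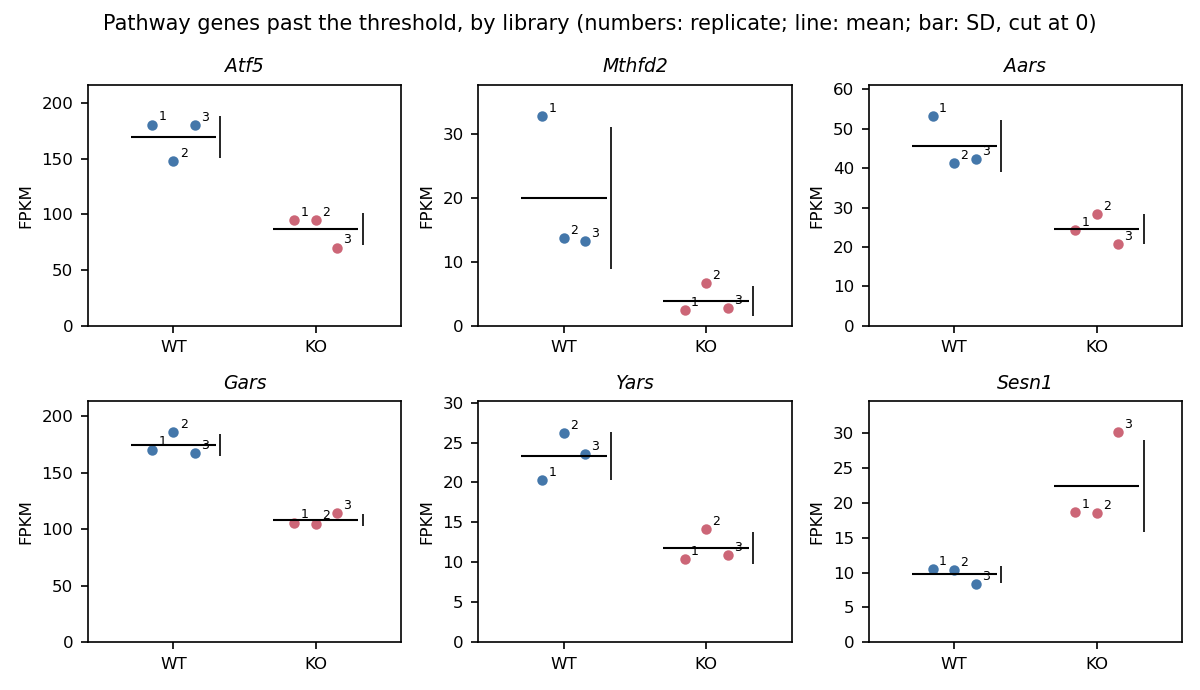
FPKM on a linear axis from 0 for the 6 other stress pathway genes past the threshold, with a dot per library marked by its replicate number, a line at the group mean and a bar of 1 SD (n = 3 per group). Atf5, Mthfd2, Aars, Gars and Yars are lower in every KO library than in any WT library and Sesn1 is higher, from 8.32 to 10.5 FPKM in WT and 18.5 to 30.03 FPKM in KO.

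Enzymes of amino acid synthesis and one-carbon metabolism had estimates below 0 in 7 of 10 genes, against 48.4% of all genes tested, with a median of −0.40 beside 0.01. The groups did not overlap in these 7, with KO lower, against 11.4% of all genes tested. Of these, 1 fell past the threshold, against 1.01% of all genes tested. Mthfd2, a mitochondrial folate enzyme, fell from 32.9, 13.8 and 13.3 FPKM in WT to 2.48, 6.68 and 2.76 FPKM in KO, a log2 fold change of −2.05 (SE 0.39, limma adjusted p 0.0391). Mthfd2 was the largest of these falls, and KO held 19.9% of its WT mean. Psat1, of serine synthesis, had an estimate of −0.88 (limma adjusted p 0.0655) and Cth, of cysteine synthesis, of −1.04 (0.0823), and neither passed. Aldh1l2, another mitochondrial folate enzyme, did not overlap in the opposite direction, at 0.66 to 1.14 FPKM in WT and 1.38 to 1.76 FPKM in KO, and did not pass. Of 8 amino acid transporters tested, 0 passed in limma. At an unadjusted p under 0.05 and lower in KO were 3 of them, against 8.6% of all genes tested: Slc1a5 (log2 fold change −0.57), Slc7a1 (−0.73) and Slc7a5 (−0.67). Over the 8 transporters, estimates lay below 0 in 5 and above 0 in 3, with a median of −0.16.

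Among the transcription factors of the response, 1 of 8 passed, against 2.21% of all genes tested. Atf5, a relative of ATF4 that is itself an ATF4 target, fell from 180.7, 148.2 and 180.3 FPKM in WT to 94.8, 95.2 and 70.3 FPKM in KO, a log2 fold change of −0.97 (SE 0.17, limma adjusted p 0.0318). Cebpb, a partner of ATF4 and also a factor of adipocyte differentiation, was at 45.5 to 59.6 FPKM in WT and 20.7 to 38.4 FPKM in KO. Its groups did not overlap and it did not pass (log2 fold change −0.95, limma adjusted p 0.0674), while the adjusted p was 0.0326 without KO replicate 1, 0.0495 with the filter at 5 FPKM and 0.0407 with array weights. Creb3l1, an ER-bound factor, had an estimate of −0.33 (limma adjusted p 0.301).

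Of 9 secreted and regulatory targets of ATF4 or CHOP that were tested, 1 rose past the threshold, against 1.21% of all genes tested. Sesn1, a sestrin better known as a target of p53 and FOXO factors, rose from 10.5, 10.4 and 8.32 FPKM in WT to 18.6, 18.5 and 30.03 FPKM in KO, a log2 fold change of 1.09 (SE 0.21, limma adjusted p 0.0391). Ddit4, an inhibitor of mTORC1 that glucocorticoids and hypoxia also raise, was at 26.8, 28.3 and 33.3 FPKM in the WT libraries and 46.4, 54.8 and 131.9 FPKM in KO. Its groups did not overlap, and the estimate of 1.22 did not pass (limma adjusted p 0.099) and was 0.76 without KO replicate 3. Fgf21 was at 0.08, 4.14 and 6.45 FPKM in the WT libraries and 0.24, 0.15 and 0 FPKM in KO, where the 0 allows up to 0.221 FPKM. Like Trib3 and Chac1 it was low in WT replicate 1, and the estimate of −1.62 did not pass (limma adjusted p 0.186), while without WT replicate 1 it was −2.46 at an adjusted p of 0.0114. Eif4ebp1, a translation repressor, was the one abundant gene of the list, at a KO mean of 94.8% of the WT mean (limma adjusted p 0.843).

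Among the genes of the ER machinery the estimates lay on both sides of 0. Of 18 ER chaperones and folding enzymes, 0 passed in limma, with 3 at an unadjusted p under 0.05, against 19.2% of all genes tested. On each side of 0 lay 9 estimates, around a median of 0.01. Pdia6, a disulfide isomerase, was at 61.8 to 64.7 FPKM in WT and 79.8 to 98.4 FPKM in KO (log2 fold change 0.50, limma adjusted p 0.0921), and Hsp90b1, the chaperone GRP94, had an estimate of 0.41 (0.243). Ero1l, an oxidase that serves the isomerases, pointed down (−0.57, limma adjusted p 0.179). The abundant genes Calr, Pdia3, P4hb and Ppib had estimates of −0.11, 0.16, 0.05 and −0.06, and those of P4hb and Ppib changed sign under some settings. In ER-associated degradation 0 of 14 tested genes passed in limma, with 0 at an unadjusted p under 0.05, against the same 19.2%. The 3 smallest p-values belonged to Sel1l (log2 fold change 0.31), Vcp (−0.26) and Os9 (0.20).

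Of 12 sensors, eIF2 alpha kinases and phosphatase subunits, 0 passed in limma, with 4 at an unadjusted p under 0.05, against 19.2% of all genes tested. Eif2ak4, the gene of GCN2, was at 4.94 to 6.11 FPKM in WT and 8.32 to 9.77 FPKM in KO, a log2 fold change of 0.64 (SE 0.15, limma adjusted p 0.0626). Ern1, the gene of IRE1 alpha, had an estimate of 0.45 (limma adjusted p 0.196), and Atf6b, a relative of ATF6, of −0.49 (0.106). The groups did not overlap in 4 of the 12, Eif2ak4, Ern1, Atf6b and Eif2ak3, the gene of PERK, against 24.9% of all genes tested. In the mitochondrial branch 0 of 8 genes passed in limma, with 1 at an unadjusted p under 0.05, against the same 19.2%. That gene was Oma1 (−0.47), of a protease that relays mitochondrial stress to HRI. Lonp1, a mitochondrial protease, had an estimate of −0.25 and Clpx, of another protease, of 0.32. The abundant chaperone genes Hspa9, Hspd1 and Hspe1 had estimates of −0.19, −0.000675 and 0.04, and those of Hspd1 and Hspe1 changed sign under some settings.

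**Figure D5:**
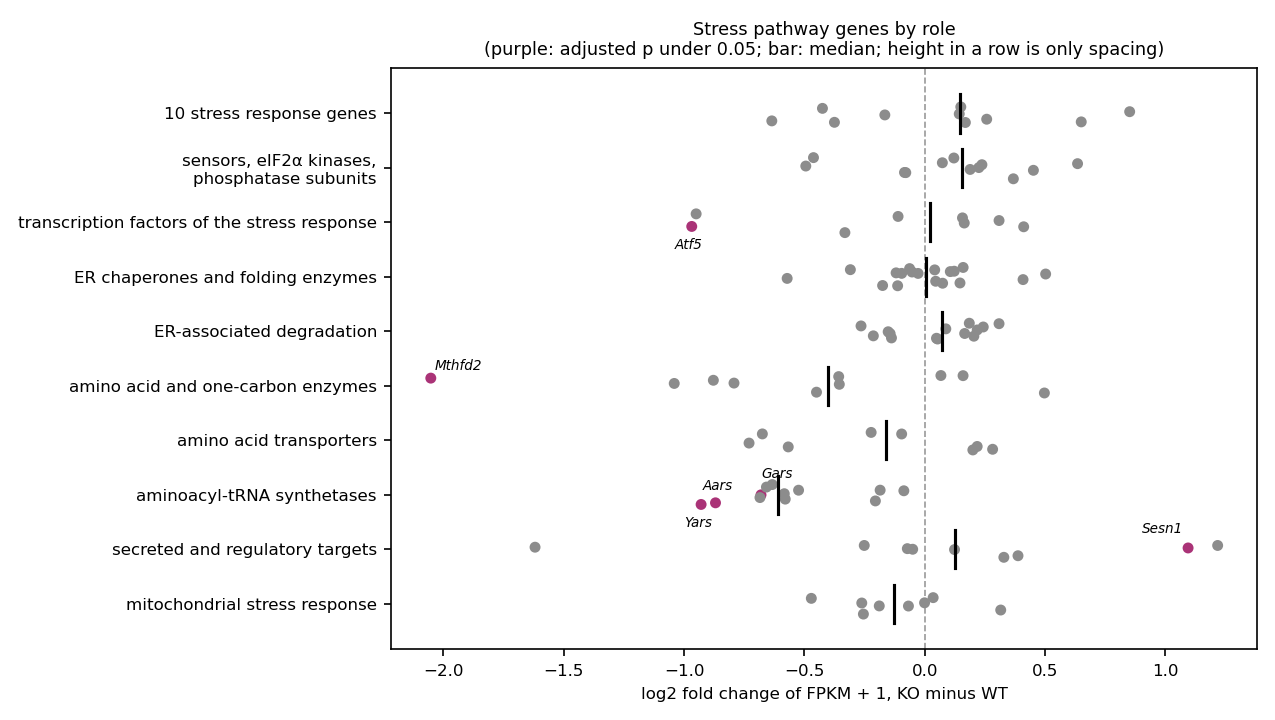
Log2 fold change of FPKM + 1, KO minus WT, on the horizontal axis for each gene tested, in rows by role, with genes past an adjusted p of 0.05 in purple and named and the row's median as a black bar. All 12 synthetase dots lie left of 0, with a median of −0.61, while the ER chaperones spread evenly about 0.01.

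Herpud1 had the largest absolute estimate among the 10, so the genes most like it were sought among 8373 others with a mean of at least 5 FPKM, by the root-mean-square difference of their log2 deviations over the 6 libraries. The nearest was Nr1d1, the clock repressor REV-ERB alpha, at a difference of 0.17, with 4.11, 9.13 and 8.68 FPKM in WT and 9.4, 12.9 and 21.8 FPKM in KO. Ifi27l2a (0.23) and 8430408G22Rik (0.24) followed. Being picked for their likeness to Herpud1, all 3 were, as it was, lowest in WT replicate 1 and highest in KO replicate 3. None passed the test (limma adjusted p 0.167 to 0.32).

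Some adipocyte transcripts were abundant throughout: Ucp1, Cidea, Adipoq and Fabp4 were at 889.1 FPKM or more in every library. Ucp1, which lets brown fat make heat, was at 4366 to 6255 FPKM in WT and 1695 to 3592 FPKM in KO, without passing (limma adjusted p 0.0804). Summed over 9 brown adipocyte markers, WT libraries lay at 21715 to 27496 FPKM and KO libraries at 21148 to 22974 FPKM. Fabp4 alone gave 14000 to 17389 FPKM of these sums, so they mostly follow that gene. Of the 9, 2 fell past the threshold, Elovl3 and Plin1, against 1.01% of all genes tested. Summed skeletal muscle markers (9 genes) were 371 FPKM in KO replicate 1 and 1434 to 2112 FPKM in the other libraries, and none of the 9 passed. Without KO replicate 1 the estimate of Asns was −0.57 (limma adjusted p 0.181), and whether muscle content bears on Asns was not tested. Macrophage markers summed to 119 to 176 FPKM in WT and 163 to 226 FPKM in KO. Of these 8 genes, 0 were past the threshold and 3 at an unadjusted p under 0.05 in limma, against 19.2% of all genes tested. Erythroid markers summed to 14389 FPKM in WT replicate 3 and 3070 to 5063 FPKM elsewhere, with 0 of 7 past the threshold and 0 at an unadjusted p under 0.05. Fibroblast markers summed to 565 to 747 FPKM in WT and 631 to 1047 FPKM in KO, and 1 of 8, Ly6a, rose, against 1.21% of all genes tested. Endothelial markers (7 genes), at 499 to 659 FPKM in WT and 519 to 573 FPKM in KO, and Schwann cell markers (6 genes), at 22.4 to 29.3 and 22.1 to 26.0 FPKM, had 0 genes past the threshold, with 1 endothelial and 0 Schwann cell genes at an unadjusted p under 0.05. Of 6 epidermal markers, 5 were under 1 FPKM in every library. Of 8 markers of B and plasma cells, secretory cells rich in this response when mature, 7 were under 1 FPKM in every library, among them the plasma cell genes Mzb1, Jchain and Tnfrsf17. The part of the muscle, macrophage, erythroid and fibroblast transcripts in the differences above was not tested.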

How the data were processed

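Bulk RNA-seq of 3 WT and 3 KO libraries was used; groups and replicate numbers came from the sample titles. The authors deposited FPKM values per gene, per the file headers, rounded to 2 decimals. The submitters' processing notes name HISAT2 2.0.4, Bowtie2 2.2.5, DESeq2 and mm10, with no role or order; the counting tool, annotation and strand handling are not given in the sources used here.

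FPKM are not counts, so log2(FPKM + 1) was fitted with limma 3.58.1 in R 4.3.3 (eBayes with trend, no covariates) over the 13331 genes whose mean over the 6 libraries reached 0.5 FPKM, with Benjamini-Hochberg adjustment at 0.05. Fold changes are on that scale, which understates those of low genes. With 3 libraries against 3, an exact permutation test cannot go below p = 0.1 and was not used. The fit was tested on simulated data.

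Depth was estimated from single-transcript genes of 500 to 1300 nt (GENCODE M21 lengths less 50 nt): 79.3% to 82.8% of 448 to 489 low values per library lay within 0.2 of a whole read, against 40.0% for evenly spread values. At this depth 3 reads on a 1 kb transcript give 0.209 to 0.227 FPKM. The steps did not give whole reads for the table as a whole, and no count test was run. Intervals and floors cover counting error or library spread only, as stated.

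The genes, gene lists, cell type markers and motifs were chosen with earlier results of these data known. The genes named were the 10, Fstl1, Xist and Eif2s3y, in each other list every gene past the threshold and then the smallest p-values up to 3, any gene averaging 100 FPKM or more, and the 3 genes most like the one with the largest change. Others (Aldh1l2, Tars, Eprs, Canx and the cell type markers) were named after their values were seen. Promoter windows were found for 92 of the 113 stress pathway genes, matched by Entrez identifier; for a gene with several windows the first listed was used. Alternatives were other pseudocounts, filters, scalings, eBayes settings, array weights, a replicate block and leaving out libraries. Figures were drawn with matplotlib 3.10.9.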

Additional observations from a re-analysis of the deposited data

How the results depend on the processing

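Of the 10 genes, 0 passed in 16 of 17 alternatives; with array weights 1 did, Asns. Over all genes tested, 295 were called, and 35 with no filter on low values, 3181 with array weights, 167 with the replicate block and 31 to 370 when 1 library was left out. Of the 99 other stress pathway genes 6 were called, and 0 with no filter, 36 with array weights, 1 with the replicate block, 0 to 4 without 1 library and 1 without WT replicate 1 and KO replicate 3 together, a setting chosen after seeing the data, in which the 1 gene called was Fgf21 and none of the 6 passed. The highest count over all genes, 370, was without WT replicate 1, and the lowest, 31, without WT replicate 3. The cause of these changes was not tested. The deviations of same-numbered WT and KO libraries correlated at 0.068, 0.043 and 0.043, so same-numbered libraries were not treated as pairs.

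For 45 single genes, 665 of 760 alternative values kept their direction and side of the threshold, 50 lost the threshold, 22 gained it and 23 changed sign. The sign changes were all in genes that did not pass. Trib3 turned to −0.91 with array weights and −0.78 without WT replicate 1 and KO replicate 3 together, and Chac1 to 0.0651 and 1.07 at pseudocounts of 0.1 and 0.01. P4hb turned to −0.15, Eif4ebp1 to 0.000807 and Hspe1 to −0.10 with array weights, and Hspd1 to 0.0151 with quantile normalization and 0.11 without both libraries. Without 1 library the estimates ran from −0.62 to 0.0762 for Ddit3, −0.73 to 0.63 for Trib3, −1.30 to 0.17 for Chac1, −0.0837 to 0.14 for P4hb, −0.15 to 0.0152 for Ppib, −0.15 to 0.0416 for Eif4ebp1, −0.21 to 0.14 for Hspd1 and −0.0631 to 0.107 for Hspe1. Chac1, Ern1, Cth, Fgf21 and Oma1 were not tested under the filter at 5 FPKM, which leaves them out. Depth limits Chac1 and Fgf21, whose low values rest on few reads.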

Other observations

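Within WT, most of the listed aminoacyl-tRNA synthetase genes were ordered differently across libraries from Trib3, Chac1, Ddit3 and Fgf21. The latter are named here for their low values in WT replicate 1. Yars, at 20.3, 26.1 and 23.5 FPKM in the WT libraries, had its lowest WT value there, as Trib3 did. So did Mars, at 13.3, 18.8 and 17.4 FPKM. WT replicate 1 was the highest library for 9 of 12 synthetases and for 5 of 10 enzymes of amino acid synthesis and one-carbon metabolism, where 16.8% of all genes tested had their highest value in it, while it was the lowest for Trib3, Chac1 and Ddit3 and the lowest WT library for Fgf21. Mthfd2 was at 32.9 FPKM in that library and at 13.8 and 13.3 FPKM in the other WT libraries, and Trib3 was at 1.07 FPKM there and at 12.5 and 10.8 FPKM in the others. Not all ATF4 targets were low there: Asns, at 108.02 FPKM, and Cth, at 10.05 FPKM, had their highest value in WT replicate 1. Of the 10 genes, that library was the lowest for 5 and the highest for 2. These are values of 1 library and were not tested.

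KO replicate 3 was the highest library for 13 of the 99 other stress pathway genes and the lowest for 23, among them 8 of 18 ER chaperones and folding enzymes, where 14.9% of all genes tested had their highest and 21.7% their lowest value in it. Some of the 13 are given here. Ppp1r15a, whose product GADD34 directs the removal of phosphate from eIF2 alpha, was at 44.4 FPKM there and at 13.3 to 23.1 FPKM in the other 5 libraries. Ddit4 was at 131.9 FPKM against 26.8 to 54.8, and Slc3a2, the heavy chain of amino acid transporters, was at 137.1 FPKM against 63.6 to 108.5. Slc1a4, a transporter of neutral amino acids, was at 6.48 FPKM against 2.63 to 2.86. Ppp1r15a, Slc3a2 and Slc1a4 were chosen after their values were seen, and none of them passed the test between KO and WT (limma adjusted p 0.644, 0.748 and 0.601).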
